A study of Rattus norvegicus with 9 samples.

Results

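Thrombin-treated rat osteoblasts were compared with untreated osteoblasts by mRNA sequencing, and every gene of the deposited count table was considered. Of the 9 libraries of the series, the 6 used here were the 3 of the control group and the 3 of the thrombin group, chosen by their labels. The primary cells came from Sprague–Dawley rat pups, and each group held 3 separate samples. Control cells grew for 7 days in osteogenic induction medium, which held dexamethasone, a synthetic glucocorticoid, together with β-glycerophosphate and ascorbic acid, while the thrombin group had the same medium with 20 U/mL thrombin. No allele was altered in either group, and cells of both groups were exposed to dexamethasone throughout. The remaining 3 libraries received thrombin with PD03, an inhibitor of the kinase MEK, and entered only the shared estimate of the spread between replicates.

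Thrombin is the serine protease that ends the coagulation cascade by cutting fibrinogen, and it also signals to cells by cutting the extracellular end of protease-activated receptors. These receptors couple to G proteins of the Gq and G12 types, which raise cytosolic calcium and feed the ERK cascade. In bone, thrombin is generated wherever vessels are torn, so that osteoblasts at a fracture or an implant meet it early.

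For tissue the labels say knee, whereas the growth protocol in the same labels describes the calvaria, the roof of the skull. Of the 10 osteoblast markers looked at, the collagen chain genes Col1a1 and Col1a2 and the transcription factor genes Runx2 (41.0 to 53.8 CPM, the read count scaled to a common library size) and Sp7 (3.73 to 7.11 CPM) were present in every library. With thrombin the log2 fold change was 0.26 for Runx2, 0.53 for Sp7, -0.15 for Col1a1 and -0.22 for Col1a2. All were short of the fold threshold used below, with adjusted p-values (edgeR) of 0.0022, 0.018, 1.0e-04 and 8.6e-09 in that order. Sp7 passed the fold threshold when Control replicate 1 (0.685) or Thrombin replicate 2 (0.626) was left out. The paper reports by qPCR that thrombin inhibited Runx2 and Osterix (Sp7), the opposite direction to these small rises. Markers of mature osteoblasts and osteocytes were low. Ibsp had 1 count in all libraries together, Dmp1 had at most 4 and Bglap at most 5 counts in a library. Ifitm5 reached at most 1.52 CPM and Phex 1.07 CPM in a library, and Alpl, which encodes the bone alkaline phosphatase, fell from 1.67 ± 0.815 to 0.345 ± 0.0145 CPM. The osteocyte hormone gene Fgf23 was the exception, at 33.8 to 42.3 CPM in the control libraries. All 8 markers of general mesenchyme lay well above 1 CPM, and so by these markers the libraries held mesenchymal cells. Defining markers of blood cells were scarce, while single markers on other lists were well read. Among 10 macrophage genes only Cd14 reached 1 CPM, while Ptprc had at most 2 counts in a library and Aif1 none. Of 7 osteoclast genes Ctsk (91.2 to 134 CPM) and Acp5 (7.14 to 9.28 CPM) were read in every library, whereas Atp6v0d2 and Dcstamp together had 1 count. On the endothelial list Eng read 119 to 134 CPM and Pecam1 at most 0.442 CPM. On the cartilage list Col2a1 read 46.6 to 87.9 CPM. The summed pericyte markers ran from 62.2 to 64.8 CPM in the control libraries and stood at 99.7 CPM or more in the thrombin libraries, most of it Cspg4, which rose from 41.5 ± 3.54 to 77.4 ± 1.17 CPM, while Rgs5 of the same list reached at most 0.163 CPM. The summed macrophage markers ran from 20.8 to 24.1 CPM in the control libraries and from 29.2 to 32.9 CPM in the thrombin libraries, nearly all of it Cd14. The part of these markers in the results was not tested. The 10 tested genes of the Hox family, which is silent in most of the skull, summed to 22.3 CPM in the control group. Picked from 40 tested craniofacial factor genes, Lhx8 and Alx4 were read in every library. Prrx1 and Twist1, which also stand among the 8 mesenchyme markers, were read in every library too. The tissue of origin was not tested from these values.

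Total counts ran from 15447832 to 17894354 per library. Libraries of the same group were alike, with Spearman's correlations across genes of 0.996 to 0.997, and correlations between groups were 0.987 to 0.988. Of 19085 genes in the table, 13256 had enough counts to be tested. A gene was called higher or lower in the thrombin group when its adjusted p-value (edgeR's quasi-likelihood test, Benjamini-Hochberg) fell below 0.05 and its log2 fold change passed 0.58 in either direction. By this rule 347 genes were called higher, 2.62% of those tested, and 721 were called lower, 5.44%. The median log2 fold change of all tested genes was -0.0060, with a median standard error (SE) of 0.085. By the adjusted p-value alone, 1867 genes (14.1%) were higher and 1941 (14.6%) lower. The libraries of the groups did not overlap for 40.3% of the tested genes, and for 336 of the genes called higher and 692 of those called lower.

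Genes were then grouped into 61 lists by function, written with earlier results of these data known, so that a list is described by its counts and median and is not tested as a set. The shares of 2.62% and 5.44% over all tested genes are the background against which the counts of every list are to be read. In a list, 1 or 2 calls are too few to be read as a change of the list. No member was called in 9 lists, 10 held falls only, 5 rises only and 37 both. The lists held 127 of the genes called higher and 229 of those called lower. A rule of size chose most genes named, but those given as not called, and among called genes Ccn5, Adamts5, Timp3, Fzd3, Wnt4, Avpr1a, Ednra, Adra1d, Slc6a6, Cfb, Cd59, Xaf1, Oas1a, Lcn2, Hsd11b1, Mgst1 and Ephx1, were mostly picked after their values were seen.

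The called genes were mostly of low level. Their median was 7.26 CPM in the control group and 14.1 CPM in the thrombin group for genes called higher, and 5.97 and 2.97 CPM for genes called lower, beside 22.6 and 22.5 CPM over all tested genes. The genes called lower nevertheless gave up more of the library, summing to 33032 CPM in control and 16987 CPM in thrombin libraries, than the genes called higher took, which summed to 14111 and 26003 CPM. Because the cells were sequenced in bulk, fewer cells of a type and less RNA per cell cannot be told apart.

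**Figure D1:**
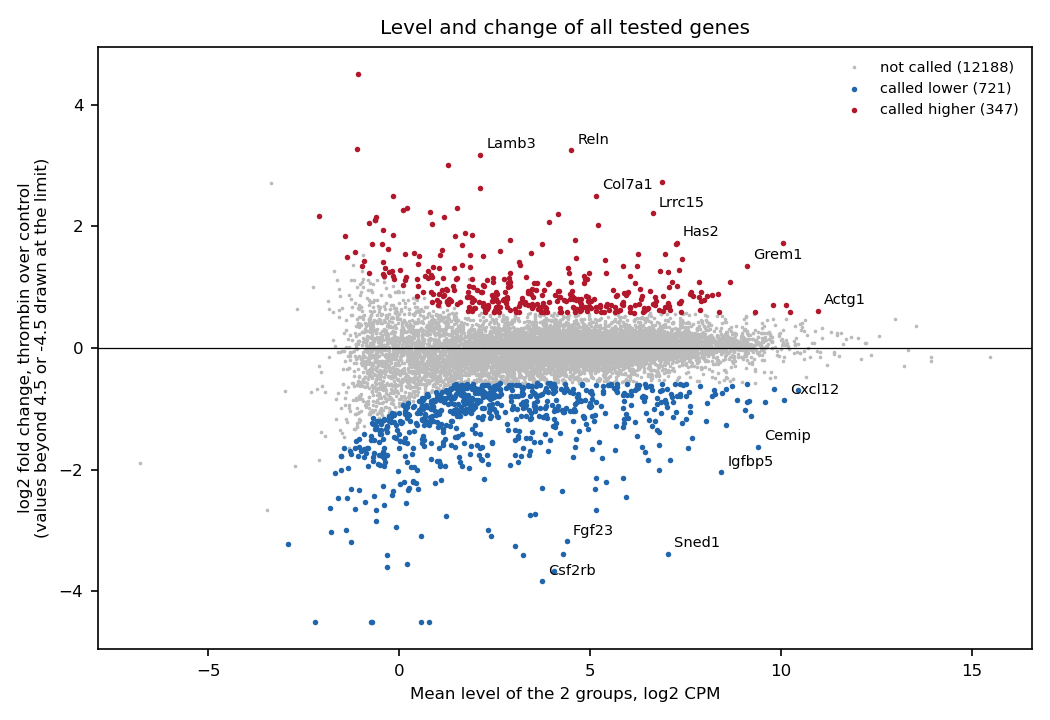
Mean level of the control and thrombin groups (log2 CPM, horizontal) against the log2 fold change of thrombin over control (vertical) for 13256 genes, with genes called higher in red, called lower in blue and the others in grey. The 721 blue points outnumber the 347 red ones, and most of both lie to the left, at low levels, while the collagen and other very abundant genes at the right sit close to 0.

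Few genes of the thrombin system itself passed the fold threshold. F2r, which encodes the main thrombin receptor PAR1, went from 281 to 242 CPM (log2 fold change -0.22, SE 0.037, adjusted p = 1.0e-05), short of the fold threshold. F2rl1, the gene of the related receptor PAR2, stood at 3.52 CPM in the control group and 5.28 CPM in the thrombin group and narrowly missed the threshold (log2 fold change 0.58, adjusted p = 0.024). It was called without Control replicate 1 (0.63) or 2 (0.75) or without Thrombin replicate 1 (0.61) or 2 (0.70). The G protein genes Gnaq, Gna11 and Gna12 had log2 fold changes of 0.22, 0.19 and 0.16 and were not called. In the list of thrombin receptors and coagulation genes, 2 of 18 tested members rose and none fell, and 9 were higher by the adjusted p-value alone, a rule met by 14.1% of all genes. Those that rose were Procr, the receptor that presents protein C to thrombin, and Tfpi2, an inhibitor of coagulation proteases (log2 fold change 1.62). Procr read 14.3, 16.4 and 15.9 CPM in the control libraries and 25.4, 30.4 and 30.5 CPM in the thrombin libraries (log2 fold change 0.90, SE 0.089, adjusted p = 5.0e-11), and every thrombin library lay above every control library. Thbd, which encodes thrombomodulin, had a log2 fold change of 0.42 and was not called.

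Genes that dissolve fibrin or guard that process split. Of 11 tested genes of plasminogen activation, 1 rose and 3 fell. Plaur, the urokinase receptor, rose from 33.2 ± 4.13 to 64.1 ± 10.1 CPM (log2 fold change 0.95, SE 0.082, adjusted p = 9.8e-13). Serping1, the inhibitor of C1 and of plasma kallikrein, fell from 197 ± 7.82 to 90.1 ± 3.35 CPM (log2 fold change -1.13, SE 0.045, adjusted p = 7.3e-24). Serpinb2, an inhibitor of urokinase, fell from 1.31 to 1.77 CPM in the control libraries to at most 0.178 CPM in a thrombin library.

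After 7 days the early transcription factors of a fresh stimulus were not raised as a group. Of 25 tested immediate early genes, 1 rose and 4 fell, and without Control replicate 3, 2 fell. Nr4a2 rose from 16.3 to 29.4 CPM (log2 fold change 0.85), while Egr2 fell from 15.9 to 6.16 CPM (-1.37) and Klf4 fell from 197 to 114 CPM (-0.79). Genes that damp ERK signalling were also mixed, with 2 of 18 higher and 0 lower, though 1 was lower without Control replicate 3 and 3 without Thrombin replicate 1. Dusp4, a nuclear phosphatase of ERK, rose from 12.3 ± 1.30 to 23.5 ± 4.47 CPM and Phlda1 rose from 53.4 ± 3.06 to 105 ± 6.62 CPM, whereas Dusp6, the phosphatase of cytosolic ERK, had a log2 fold change of -0.40 and was not called. Among the 30 genes of actin and its transcription factor SRF, Actn1, an actin crosslinker, rose from 508 to 763 CPM, at the edge of the threshold (log2 fold change 0.59, and 0.57 without Control replicate 1 and 0.58 without Thrombin replicate 2, where it was not called), and Fhl1 and the myosin kinase gene Mylk fell (-1.15 and -0.93). Without Thrombin replicate 1, 2 members of this list rose. Of 24 YAP and TEAD target genes, 1 rose and 3 fell (0 and 1 without Control replicate 2 or without Thrombin replicate 3), and the standard targets Ccn1 and Ccn2 had log2 fold changes of 0.28 and 0.33.

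The largest rises were ranked among called genes with a symbol, at least 5 CPM and no overlap between groups, leaving out those the paper names. The first was Reln, which encodes the secreted guidance protein reelin (ENSRNOG00000021441). Reln read 4.51, 3.79 and 4.61 CPM in the control libraries and 36.3, 45.2 and 41.6 CPM in the thrombin libraries (log2 fold change 3.25, SE 0.13, adjusted p = 9.5e-24). Lamb3, the β3 chain of the epithelial laminin-332, read 0.707, 1.14 and 0.758 CPM in the control libraries and 7.97, 6.64 and 8.98 CPM in the thrombin libraries (log2 fold change 3.18, SE 0.23, adjusted p = 7.1e-15). Col7a1, the collagen of anchoring fibrils, read 11.6, 10.4 and 9.79 CPM in the control libraries and 57.1, 63.4 and 61.3 CPM in the thrombin libraries (log2 fold change 2.51, SE 0.082, adjusted p = 8.4e-27). Since the ranking admitted only genes without overlap, the gap between groups in these genes follows from the rule. The remaining large rises were in genes of varied function. Lrrc15, a membrane protein of activated fibroblasts, rose from 35.2 ± 1.90 to 164 ± 7.64 CPM (log2 fold change 2.22, SE 0.059, adjusted p = 7.9e-30). PCOLCE2, an enhancer of procollagen processing, rose from 5.82 ± 0.524 to 24.6 ± 0.466 CPM, Pmepa1, a TGF-β-induced brake on SMAD signalling, from 71.0 ± 2.2 to 232 ± 3.92 CPM, and Lmcd1, a LIM protein, from 14.5 ± 1.58 to 59.4 ± 9.64 CPM. Cd93, Krt7, Ctnnd2, Serinc2 and the drug exporter gene Slc47a1 had log2 fold changes of 1.57 to 2.64.

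The largest falls by the same rule included a cytokine receptor chain, secreted matrix proteins and a hormone. Csf2rb, the shared chain of the receptors for GM-CSF and interleukin-3, read 26.5, 23.1 and 25.6 CPM in the control libraries and 1.55, 2.08 and 1.63 CPM in the thrombin libraries (log2 fold change -3.83, SE 0.14, adjusted p = 1.2e-24). Clec3b, which encodes the plasminogen-binding protein tetranectin, read 29.8, 31.3 and 30.6 CPM in the control libraries and 2.86, 2.03 and 2.33 CPM in the thrombin libraries (log2 fold change -3.67, SE 0.11, adjusted p = 7.2e-28). Sned1, a matrix protein, read 238, 242 and 239.8 CPM in the control libraries and 23.4, 22.9 and 22.7 CPM in the thrombin libraries (log2 fold change -3.38, SE 0.054, adjusted p = 1.8e-37), the steadiest of these genes within each group. Dpp4, a dipeptidyl peptidase of the cell surface, fell from 17.3 ± 2.18 to 1.63 ± 0.232 CPM (log2 fold change -3.40). Fgf23, the hormone by which bone controls phosphate, read 42.3, 33.8 and 36.8 CPM in the control libraries and 4.52, 3.67 and 4.31 CPM in the thrombin libraries (log2 fold change -3.18, SE 0.12, adjusted p = 1.1e-24). Tslp, an alarmin cytokine, fell by 3.10 on the log2 scale. Cilp of cartilage, Ccn3, the versican-cutting protease gene Adamts15, and the chemerin gene Rarres2 had log2 fold changes of -2.73, -2.67, -2.44 and -2.35. In 3 genes of at least 1 CPM in the control group, the thrombin group held 3 counts or fewer. C6, a complement component, had 62 counts over the control group and 0 over the thrombin group, at least 21.6-fold lower when the thrombin group is set at 3 counts, its floor. Akr1c15 had 58 counts against 1, and Ripply1 had 145 against 3.

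**Figure D2:**
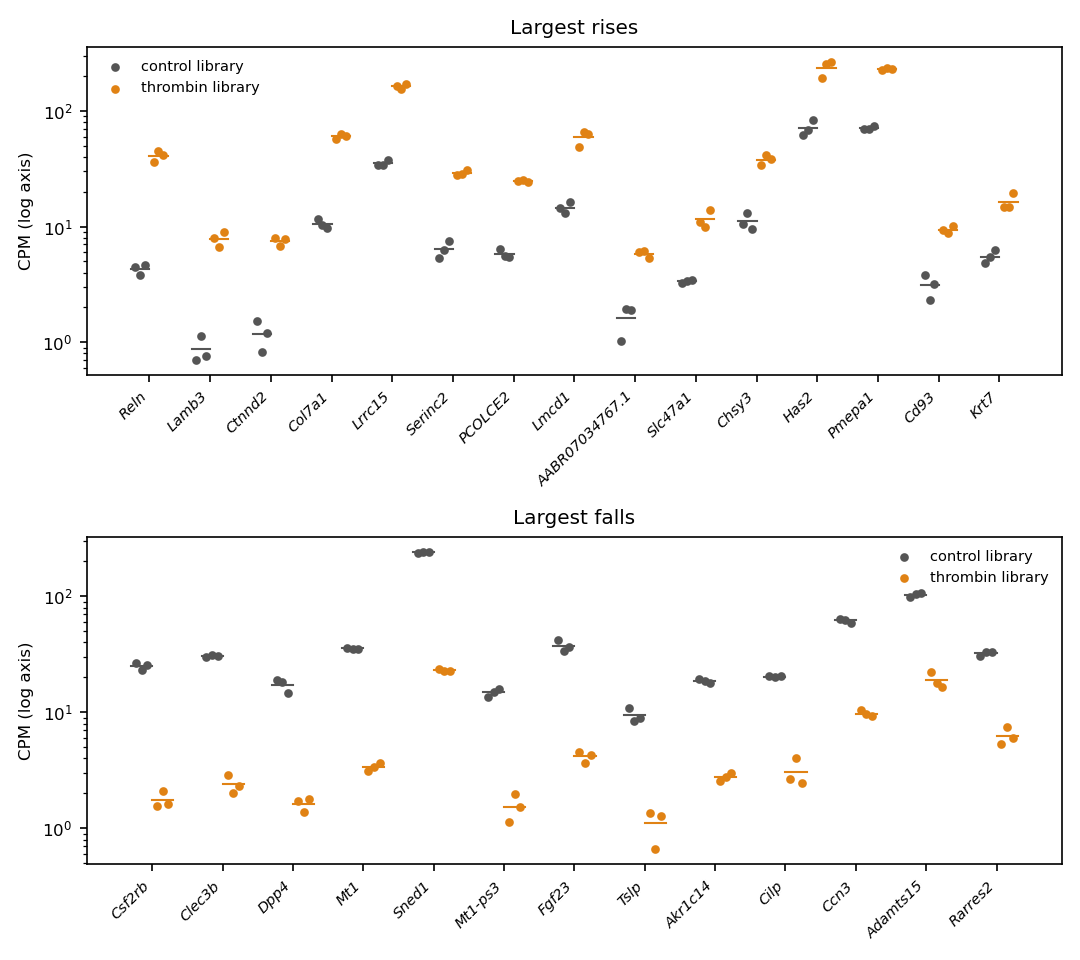
CPM of each library (log axis) for the genes with the largest rises (upper panel) and largest falls (lower panel), with control libraries in grey, thrombin libraries in orange and a bar at each group's mean. They were taken from called genes with a symbol and at least 5 CPM that the paper does not name. The rule also required no overlap between groups, so the libraries are apart in every gene shown. Reln read 3.79 to 4.61 against 36.3 to 45.2 CPM, and Rarres2 30.5 to 33.4 against 5.29 to 7.51 CPM.

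Measured by CPM gained or lost, other genes stood out. Leaving out genes the paper names, Actg1, cytoplasmic γ-actin, gained most, from 1569.8 ± 32.3 to 2402 ± 88.0 CPM (log2 fold change 0.61), although reads of near-identical actin copies may be shared. Fbln2, a fibulin, rose from 859 ± 16.1 to 1398 ± 24.3 CPM, Grem1, a secreted inhibitor of bone morphogenetic proteins, from 309 ± 7.83 to 791 ± 45.9 CPM, and Ptk7, a Wnt co-receptor, from 669.9 ± 31.6 to 1094 ± 10.3 CPM. The largest loss was in Cemip, which cuts hyaluronan outside cells. Cemip read 1036, 1039 and 989 CPM in the control libraries and 336, 330.1 and 331 CPM in the thrombin libraries (log2 fold change -1.62, SE 0.033, adjusted p = 1.2e-33). Cxcl12, the chemokine that retains blood stem cells in marrow, fell from 1399.7 ± 8.74 to 770.3 ± 15.8 CPM, Ccdc80 from 1722 ± 28.5 to 1069 ± 27.3 CPM and Svep1 from 1002 ± 9.28 to 541 ± 17.3 CPM.

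In the hyaluronan list a synthase gene rose and the gene of an extracellular hyaluronidase fell. Of 17 tested genes for hyaluronan and large proteoglycans, 6 rose and 2 fell, with a median log2 fold change of 0.33, the highest among the 61 gene lists. This order changed with the treatment of low genes, since the median was 0.121 among genes with a mean of at least 50 counts and 0.153 with log2(FPKM + 1), in both cases below that of DNA replication (0.197 and 0.173). Without Control replicate 1 or without Thrombin replicate 2, 3 members were called higher. Has2, the main hyaluronan synthase of mesenchyme, read 62.2, 68.5 and 83.4 CPM in the control libraries and 192, 252 and 265 CPM in the thrombin libraries (log2 fold change 1.73, SE 0.084, adjusted p = 8.2e-21). The link protein genes Hapln3 and Hapln4 rose by 0.75 and 0.96 on the log2 scale from low levels. The receptor gene Cd44 and the versican gene Vcan had log2 fold changes of 0.43 and 0.33, below the threshold. Prg4, which encodes lubricin, fell with Cemip (-1.19).

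Some enzymes that build and sulfate chondroitin chains rose, while an enzyme that trims heparan sulfate fell. Of 46 such genes, 5 rose and 4 fell, with a median near 0. The chondroitin polymerase gene Chsy3 read 10.5, 13.2 and 9.6 CPM in the control libraries and 33.8, 41.5 and 38.2 CPM in the thrombin libraries (log2 fold change 1.77, SE 0.098, adjusted p = 7.4e-19), and its paralogue Chsy1 rose from 89.1 ± 1.98 to 179 ± 14.4 CPM. The 4-O-sulfotransferase genes Chst11 and Chst12 rose from 58.6 ± 2.01 to 105 ± 4.03 CPM and from 85.9 ± 2.93 to 155 ± 3.54 CPM. Chst13, of the same class, fell from a low level, from 1.74 ± 0.480 to 0.894 ± 0.265 CPM, and lost its call without Control replicate 1 (-0.78) or 2 (-0.89) and without Thrombin replicate 1 (-0.74) or 3 (-1.03). For Chsy3 every thrombin library lay above the control libraries. Sulf2, a sulfatase acting on heparan sulfate outside cells, fell from 162 ± 1.42 to 62.2 ± 3.70 CPM (log2 fold change -1.39, SE 0.048, adjusted p = 7.7e-26), and the glypican gene Gpc3 fell from 123 to 75.7 CPM.

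Among called genes, the list of collagen chains held only falls and that of collagen folding and crosslinking only rises. Of 26 tested collagen genes of the fibrillar and other collagen list, which leaves out the basement membrane collagens and Col7a1, none was called higher and 5 fell, with a median of -0.19. Col14a1, a collagen on the surface of fibrils, fell from 536 ± 11.6 to 224 ± 8.61 CPM (log2 fold change -1.26, SE 0.036, adjusted p = 1.5e-28), Col6a1, of beaded microfibrils, fell from 1117 ± 31.1 to 697 ± 12.7 CPM, and the cartilage collagen gene Col2a1 fell from 84.4 ± 4.91 to 49.2 ± 2.65 CPM. Type III collagen, Col3a1, had a log2 fold change of -0.30 and was not called. The 32 genes of collagen folding and crosslinking had a median of -0.029, with 10 higher and 11 lower by the adjusted p-value alone. Of them 3 were called higher and none lower. Besides PCOLCE2, these were Plod2, the lysyl hydroxylase for telopeptide crosslinks, which rose from 207 ± 3.72 to 378 ± 2.67 CPM (log2 fold change 0.87, SE 0.038, adjusted p = 1.8e-22), and P3h2 at 1.36 and 3.04 CPM. The crosslinking oxidase genes Lox and Loxl2 had log2 fold changes of 0.47 and 0.42, not called.

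In the basement membrane list 3 of 30 genes rose, among them the epithelial anchoring genes Lamb3 and Col7a1, and 5 fell. Npnt, a ligand of integrin α8β1, fell from 36.6 ± 2.61 to 12.9 ± 1.10 CPM and Fras1 fell from 14.7 ± 2.12 to 5.27 ± 0.330 CPM, while Itga8, the α8 chain itself, fell from 156 ± 5.02 to 74.7 ± 4.11 CPM (log2 fold change -1.07, SE 0.046, adjusted p = 2.0e-22) in the integrin list, where 1 of 21 rose and 2 fell. The count of integrins called higher ran from 0 without Thrombin replicate 3 to 3 without Thrombin replicate 1. The common laminin chain genes Lama4, Lamb1 and Lamc1 had log2 fold changes of 0.21, 0.17 and 0.35 and were not called.

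Small leucine-rich proteoglycans bind collagen fibrils. None of 13 tested members rose and 5 fell, with a median of -0.40 (-0.24 without Control replicate 2 or without Thrombin replicate 3). Ogn (osteoglycin) fell from 153 ± 10.7 to 60.4 ± 2.60 CPM (log2 fold change -1.34, SE 0.050, adjusted p = 1.1e-24), Omd (osteomodulin) from 7.53 ± 1.81 to 2.24 ± 0.186 CPM and Prelp from 146 ± 6.98 to 91.0 ± 1.10 CPM, whereas the abundant Bgn (biglycan), Dcn (decorin) and Lum (lumican) had log2 fold changes of 0.26, -0.22 and -0.19 and were not called. Elastic fibre and matricellular genes went both ways, 8 of 36 higher and 7 lower. Besides Reln, those that rose included Postn (periostin), from 124 ± 4.15 to 211 ± 5.71 CPM, Tgfbi, from 65.3 ± 1.74 to 125 ± 3.30 CPM, and Ccn4, a Wnt-induced matricellular gene, from 175 ± 5.60 to 299 ± 4.88 CPM. Those that fell included Mfap5, from 253 ± 12.1 to 113 ± 3.48 CPM, elastin (Eln), from 8.19 ± 0.538 to 3.72 ± 0.414 CPM, and Ccn5, from 149.8 ± 4.87 to 81.2 ± 4.78 CPM. Of 37 matrix proteases and inhibitors, 3 rose and 8 fell, including Adamts15, Adamts5 (from 110.3 to 63.1 CPM), the collagenase gene Mmp13 (from 12.3 to 6.62 CPM) and the inhibitor gene Timp3 (from 14.9 to 8.77 CPM).

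Adhesion and guidance lists held more falls than rises, as did all tested genes. Of 34 cadherin and junction genes, 3 rose and 9 fell. Cdh3 (P-cadherin) rose from 18.9 to 32.9 CPM and the desmosomal gene Pkp1 rose from 17.5 to 39.7 CPM. Cldn1, a tight junction claudin, had 3.70, 3.16 and 3.16 CPM in the control libraries and at most 0.119 CPM in a thrombin library. Among 16 immunoglobulin-type adhesion genes, 3 rose and 4 fell, with Ncam1 up from 99.3 to 158 CPM and Vcam1, which holds leukocytes, down from 23.8 to 9.67 CPM. Of 58 axon guidance genes, 4 rose and 8 fell. The repellent ligand genes Slit3 and Sema3d fell from 807 ± 15.6 to 371 ± 19.5 CPM and from 133 ± 2.93 to 40.9 ± 0.473 CPM, the receptor gene Robo2 fell from 19.0 to 6.55 CPM, and the ligand gene Ntn1 rose from 50.5 to 80.3 CPM.

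**Figure D3:**
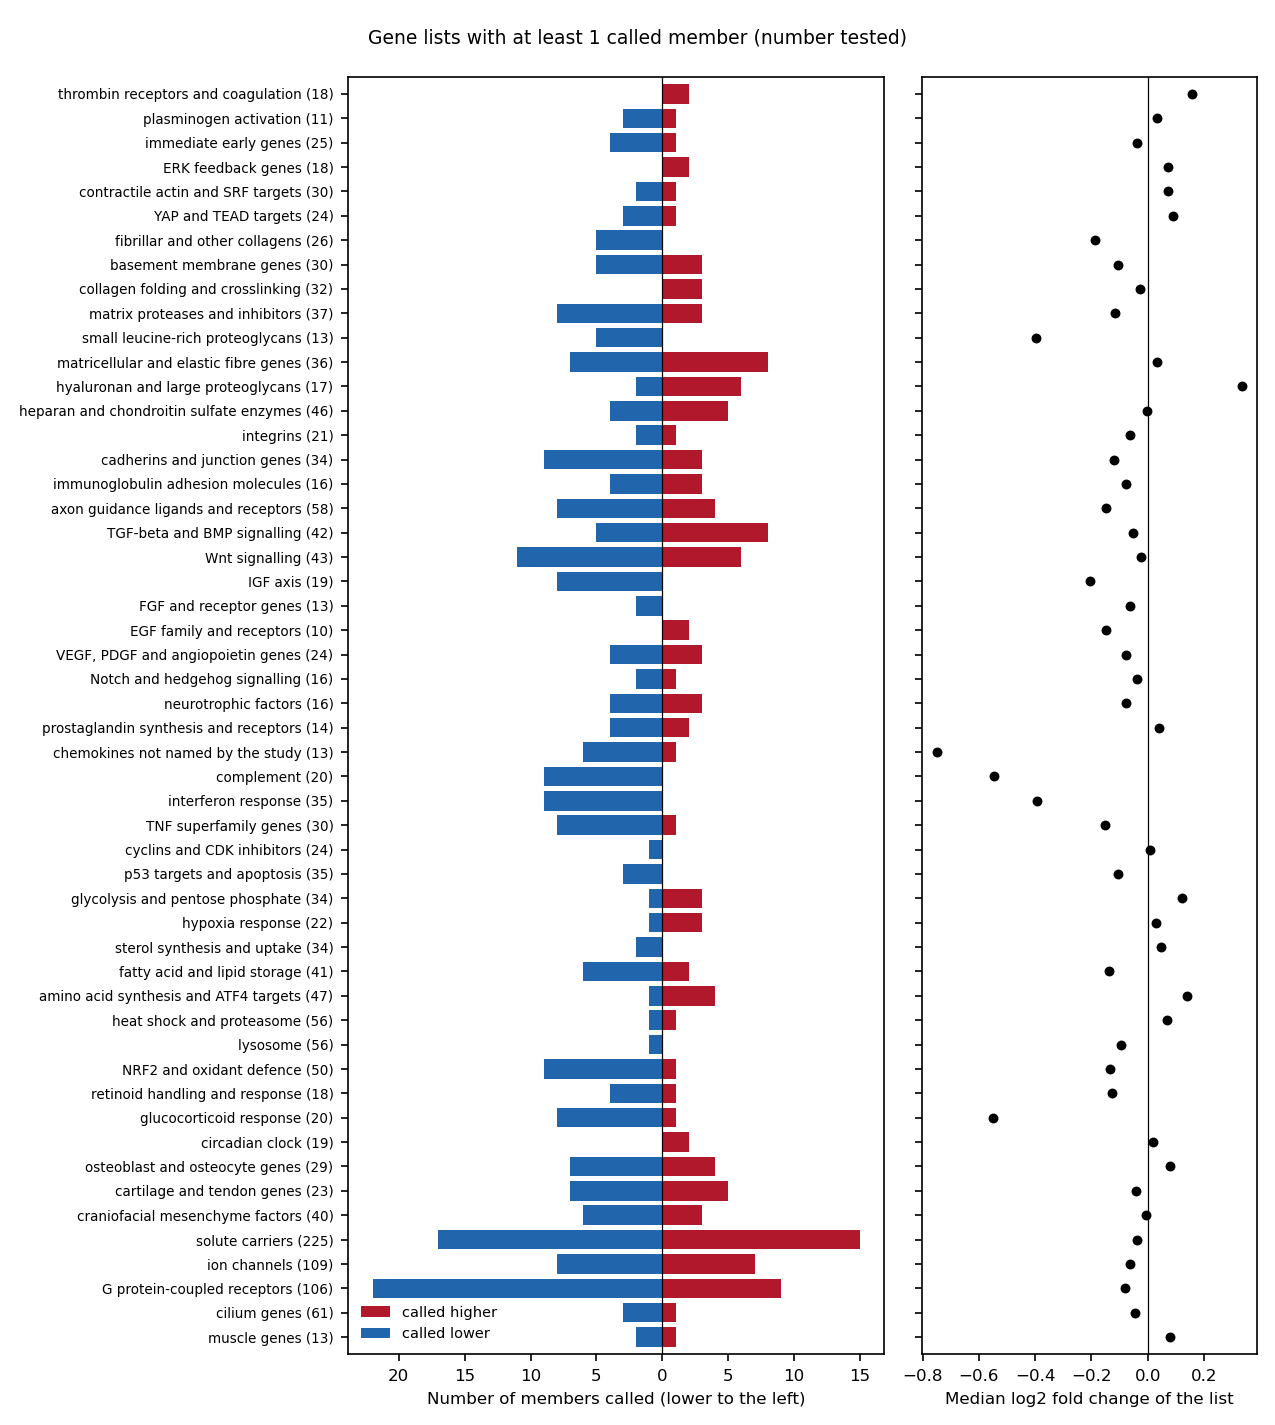
Number of members called higher (red, to the right) and lower (blue, to the left) in each of the 52 gene lists with at least 1 call, with the number tested in parentheses, and the median log2 fold change of each list (black points, right panel). Chemokines that the paper does not name, complement, glucocorticoid response, small leucine-rich proteoglycans and interferon response have the lowest medians, and hyaluronan and large proteoglycans the highest. The chemokine list leaves out the Cxcl genes that the paper reports as raised by thrombin. Among genes with a mean of at least 50 counts, neurotrophic factors were lowest (-0.51), the chemokine list stood at -0.29, and DNA replication (0.197) was highest.

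Insulin-like growth factor (IGF) genes fell without exception among those called. Of 19 tested genes of the IGF axis, none rose and 8 fell, with a median of -0.21, and their summed level went from 3609.9 to 2677 CPM. Igf2, a growth factor of fetal tissue and bone, read 289, 283 and 288 CPM in the control libraries and 97.5, 90.0 and 88.4 CPM in the thrombin libraries (log2 fold change -1.64, SE 0.044, adjusted p = 1.5e-29). Of the IGF binding protein genes 4 fell, while Igfbp6 and Igfbp7 were not called. Igfbp5, the binding protein that adheres to bone mineral, read 583, 519.9 and 558 CPM in the control libraries and 152, 125 and 127 CPM in the thrombin libraries (log2 fold change -2.04, SE 0.051, adjusted p = 1.0e-30). Igfbp2 fell from 167 ± 1.51 to 55.2 ± 1.41 CPM, Igfbp4 from 366 ± 3.88 to 160.1 ± 2.23 CPM and Igfbp3 from 44.3 ± 1.25 to 17.7 ± 1.33 CPM. The receptor gene Igf2r and the protease gene Pappa, which frees IGF from Igfbp4, had log2 fold changes of 0.26 and 0.34 and were not called.

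The Wnt genes called were of several roles, among them inhibitors, an agonist, receptors, ligands and a target. Of 43 tested genes, 6 rose and 11 fell. The secreted Wnt inhibitor genes Sfrp1 and Sfrp2 fell from 713 ± 7.75 to 351 ± 11.1 CPM and from 741 ± 5.85 to 406 ± 17.5 CPM (log2 fold changes -1.02 ± 0.034 and -0.87 ± 0.038), and Frzb and Dkk2, of the same role, fell from 1.13 and 1.95 CPM to 0.173 and 0.498 CPM. Wif1, a further secreted inhibitor, rose from 1.47 ± 0.724 to 2.83 ± 0.686 CPM with overlapping groups, and lost its call without Control replicate 1 (0.62) or Thrombin replicate 3 (0.76). The agonist gene Rspo2 fell too (-1.44), as did the receptor genes Fzd4 (from 45.6 to 21.0 CPM) and Fzd3 (from 6.38 to 3.80 CPM). Among the ligands, Wnt9a rose from 4.21 to 9.25 CPM and Wnt4 fell from 4.39 to 2.36 CPM. Axin2, a direct target and feedback inhibitor of β-catenin signalling, read 1.85, 1.33 and 2.15 CPM in the control libraries and 4.70, 3.56 and 3.61 CPM in the thrombin libraries (log2 fold change 1.15, SE 0.23, adjusted p = 9.8e-05), higher in each thrombin library but at a low level.

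In the TGF-β and BMP list, 8 of 42 tested genes rose and 5 fell. The secreted BMP antagonist gene Grem1 read 313, 299.9 and 314 CPM in the control libraries and 738, 812 and 823 CPM in the thrombin libraries (log2 fold change 1.36, SE 0.041, adjusted p = 5.4e-28), with no overlap. The BMP receptor gene Bmpr1b rose from 12.2 ± 1.41 to 30.4 ± 1.59 CPM, the feedback gene Skil from 74.7 ± 1.56 to 133 ± 11.4 CPM and the ligand gene Tgfb1 from 68.4 ± 0.395 to 106 ± 3.78 CPM. The ligand gene Bmp3 fell from 16.4 ± 1.13 to 5.09 ± 0.846 CPM, another BMP antagonist, Chrd, fell from 18.7 ± 1.04 to 9.71 ± 1.47 CPM, and the TGF-β receptor gene Tgfbr2 fell from 514 ± 10.4 to 333 ± 11.9 CPM. The immediate BMP targets Id3, Smad6 and Smad7 had log2 fold changes of 0.35, 0.46 and 0.43, below the threshold.

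Other growth factor genes went both ways. Of 16 neurotrophic genes, 3 rose and 4 fell. Artn, a GDNF-family ligand, rose from 15.1 ± 1.33 to 26.0 ± 2.63 CPM, while pleiotrophin, Ptn, fell from 142 ± 5.31 to 39.6 ± 0.921 CPM (log2 fold change -1.84, SE 0.051, adjusted p = 2.9e-29) and its relative Mdk (midkine) fell from 18.8 ± 1.87 to 10.3 ± 0.556 CPM. In the EGF family, 2 of 10 genes rose, Hbegf from 22.0 to 39.4 CPM and Nrg1 from 4.53 to 10.1 CPM, and none fell, or 1 without Control replicate 3. Of 13 FGF genes 2 fell, Fgf23 and Fgfr3, and none rose, or 1 without Thrombin replicate 3. Of 24 VEGF, PDGF and angiopoietin genes, 3 rose and 4 fell, or 2 fell without Control replicate 1, with Esm1 up from 148 to 266 CPM and Angpt1, which stabilises vessels, down from 105 to 60.6 CPM. In the Notch and hedgehog list, 1 of 16 rose and 2 fell, among them the ligand gene Jag1 from 11.8 to 4.62 CPM, and 1 fell when any of Control replicates 1 and 2 and Thrombin replicates 1 and 3 was left out.

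**Figure D4:**
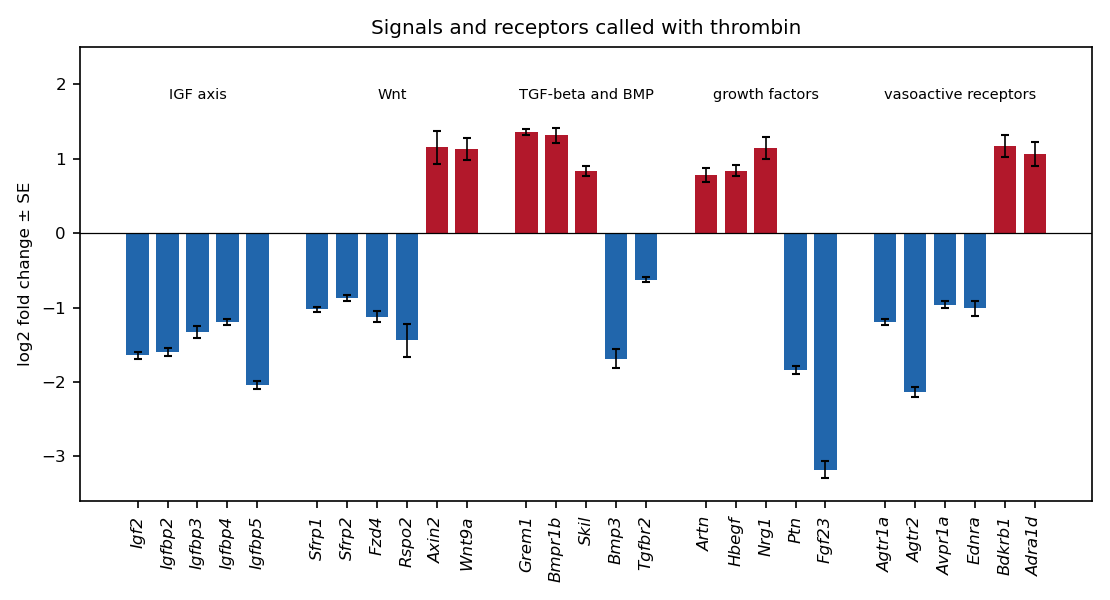
Log2 fold change of thrombin over control (bars, red for higher and blue for lower) with its standard error (whiskers) for 27 called genes of 5 signalling groups, picked from the called genes and not a sample of them. The IGF genes all point down, by 1.19 to 2.04, whereas each of the other groups holds genes of both directions.

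Receptors for vasoactive peptides were among the falls in the G protein-coupled receptor list, where 9 of 106 tested genes rose and 22 fell. The angiotensin receptor genes Agtr2 and Agtr1a fell, Agtr2 from 94.9 ± 8.37 to 21.7 ± 0.195 CPM (log2 fold change -2.13, SE 0.066, adjusted p = 1.8e-27) and Agtr1a from 145 ± 1.73 to 63.3 ± 1.66 CPM (log2 fold change -1.19, SE 0.044, adjusted p = 7.8e-25). The vasopressin receptor gene Avpr1a fell from 259.9 ± 3.80 to 134 ± 8.66 CPM and the endothelin receptor gene Ednra from 25.5 ± 1.73 to 12.6 ± 1.14 CPM. In the opposite direction, the PACAP receptor gene Adcyap1r1 rose from 13 ± 0.829 to 36.2 ± 1.44 CPM, the bradykinin B1 receptor gene Bdkrb1 from 6.18 ± 0.739 to 13.8 ± 3.20 CPM and the adrenergic receptor gene Adra1d from 4.71 ± 0.939 to 9.81 ± 1.45 CPM. Of 109 ion channel genes 7 rose and 8 fell, and of 225 solute carriers 15 rose and 17 fell, or 11 without Control replicate 2. The phosphate importer gene Slc20a1 rose from 121 ± 5.88 to 202 ± 19.1 CPM and the taurine importer gene Slc6a6 from 137 ± 5.29 to 255 ± 5.10 CPM. In the prostaglandin list, 2 of 14 rose and 4 fell. Ptgs1, the constitutive cyclooxygenase, rose from 167 ± 3.34 to 316 ± 4.17 CPM (log2 fold change 0.92, SE 0.038, adjusted p = 4.4e-23), Pla2g4a, which frees arachidonic acid, rose from 22.4 to 35.9 CPM, and the clearance genes Slco2a1 and Hpgd fell from 26.1 to 12.6 CPM and from 3.76 to 2.0 CPM.

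Among complement genes none rose. Of 20 tested genes 9 fell, with a median of -0.55. Besides C6 and Serping1, factor B (Cfb) fell from 105 ± 1.43 to 59.7 ± 1.37 CPM, C4a fell from 16.3 ± 1.87 to 4.84 ± 0.467 CPM (log2 fold change -1.76, SE 0.12, adjusted p = 2.4e-15), the receptor gene C5ar2 fell from 15.1 ± 1.12 to 6.85 ± 1.10 CPM and Cd59, which blocks the membrane attack complex, fell from 17.1 ± 1.62 to 8.68 ± 1.36 CPM. C4a and C4b are near-identical, so their reads may be split between them. The abundant members C1r, C1s and C3 had log2 fold changes of -0.39, -0.57 and -0.27 and were not called, although C1s passed at -0.58 without Thrombin replicate 1. The chemokine genes that the paper does not name fell in 6 of 13 cases and rose in 1, with a median of -0.75, the lowest of all lists. The median was -0.48 without Control replicate 3 or without Thrombin replicate 2, then above that of complement (-0.52 and -0.53), and -0.29 among genes with a mean of at least 50 counts. Ccl11, which attracts eosinophils, fell from 4.04 ± 0.620 to 0.598 ± 0.216 CPM and Cxcl14 fell from 11.6 ± 0.481 to 5.15 ± 0.813 CPM, while the neutrophil chemokine gene Cxcl2 rose from 1.07 ± 0.222 to 3.08 ± 0.0945 CPM. Of 30 TNF superfamily genes, 1 rose (2 without Control replicate 1) and 8 fell, among them the ectodysplasin receptor gene Edar (from 6.55 to 2.11 CPM).

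Interferon response genes leaned downward. None of the 35 tested genes rose, 9 fell, the median was -0.39, and 33 members had a log2 fold change below 0. By the adjusted p-value alone, 19 were lower and none higher. Ifit2, a sensor of foreign RNA, read 34.7, 31.9 and 31.6 CPM in the control libraries and 15.7, 18.5 and 18.8 CPM in the thrombin libraries (log2 fold change -0.89, SE 0.088, adjusted p = 4.1e-11). Irf7, the factor that amplifies interferon, fell from 6.66 ± 0.585 to 3.78 ± 0.315 CPM, Gbp2, a guanylate-binding protein, from 10.4 ± 0.572 to 6.00 ± 0.732 CPM, and Ifih1, the RNA sensor MDA5, from 10.9 ± 1.01 to 6.29 ± 0.668 CPM. Xaf1 and the 2′-5′-oligoadenylate synthase gene Oas1a had log2 fold changes of -0.70 and -1.42. The call of Oas1a, a gene of low level (from 0.774 to 0.285 CPM), was lost without Control replicate 1 (-1.32) or 2 (-1.19) and without Thrombin replicate 1 (-1.59) or 3 (-0.95).

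RefSeq promoter sequence (GRCr8, from 250 bases before to 50 after the start site) was matched by symbol to 9213 of the tested genes, among them 29 of the interferon list. The interferon-stimulated response element, searched as GAAA and GAAA with any 2 bases between them on both strands, stood in 22 of those 29 promoters (75.9%) and in 2.82% of all 9213. It was found in 5 of the 7 promoters matched to called members, and these are printed from 100 bases before the start to the base before it, read 5′ to 3′ on the gene's strand, with the motif in capitals. They are shown so that the motif most of the list shares can be seen beside genes that fell, and a match is a description, not a site shown to act here. In Oas1a the capitals join overlapping matches.
Irf7, chr1:205800024-205800123, reverse strand: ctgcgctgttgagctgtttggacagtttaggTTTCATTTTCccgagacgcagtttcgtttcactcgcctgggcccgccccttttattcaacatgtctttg
Gbp2, chr2:234005627-234005726, forward strand: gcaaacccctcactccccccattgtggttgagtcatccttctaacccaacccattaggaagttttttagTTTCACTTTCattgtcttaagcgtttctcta
Ifih1, chr3:67683969-67684068, reverse strand: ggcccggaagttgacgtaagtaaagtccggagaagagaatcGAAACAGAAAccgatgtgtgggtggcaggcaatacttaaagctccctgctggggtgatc
Xaf1, chr10:57415835-57415934, forward strand: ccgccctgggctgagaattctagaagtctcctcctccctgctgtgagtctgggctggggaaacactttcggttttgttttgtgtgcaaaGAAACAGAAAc
Oas1a, chr12:41330366-41330465, forward strand: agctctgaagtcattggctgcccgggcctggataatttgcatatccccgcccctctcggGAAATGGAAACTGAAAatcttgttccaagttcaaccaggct

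The metallothionein gene Mt1 was among the 15 largest falls by the ranking above, and Mt2A fell with it. Metallothioneins are small proteins that bind zinc and copper, and their genes respond to metals through the factor MTF1 and to glucocorticoids. Mt1 read 36.2, 35.4 and 35.4 CPM in the control libraries and 3.09, 3.40 and 3.67 CPM in the thrombin libraries (log2 fold change -3.39, SE 0.11, adjusted p = 1.9e-26), and Mt2A read 167, 183 and 188 CPM in the control libraries and 42.2, 46.5 and 45.6 CPM in the thrombin libraries (log2 fold change -2.0, SE 0.061, adjusted p = 7.4e-28). A pseudogene, Mt1-ps3, followed them (from 14.9 to 1.54 CPM), and its reads may come from the parent gene. The promoters of both genes are printed from 250 bases before the start to the base before it, with the core of the metal response element, TGCACNC or TGCGCNC on either strand, in capitals. There were 6 matches in Mt1 and 4 in Mt2A. Such short cores also stood in 13.3% and 27.9% of all matched promoters, and they were added to the search after the values were seen.
Mt1, chr19:10832976-10833225, reverse strand: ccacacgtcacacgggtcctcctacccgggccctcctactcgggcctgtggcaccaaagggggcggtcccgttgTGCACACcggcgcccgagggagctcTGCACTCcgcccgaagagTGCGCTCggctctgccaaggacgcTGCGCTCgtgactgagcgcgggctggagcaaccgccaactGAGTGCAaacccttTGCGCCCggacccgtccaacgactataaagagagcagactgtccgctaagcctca
Mt2A, chr19:10838709-10838958, reverse strand: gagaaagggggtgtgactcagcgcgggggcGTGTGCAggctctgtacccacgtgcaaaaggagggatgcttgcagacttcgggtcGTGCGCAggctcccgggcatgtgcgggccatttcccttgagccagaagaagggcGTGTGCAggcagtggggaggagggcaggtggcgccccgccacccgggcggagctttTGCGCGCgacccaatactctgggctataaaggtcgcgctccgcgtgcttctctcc

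Both metallothioneins belong to the glucocorticoid response list, where 1 of 20 tested genes rose (none without Control replicate 2 or Thrombin replicate 1) and 8 fell, with a median of -0.55 (-0.30 among genes with a mean of at least 50 counts). Cdkn1c, a cyclin-dependent kinase inhibitor, read 59.3, 57.5 and 58.2 CPM in the control libraries and 12.1, 14.6 and 13.1 CPM in the thrombin libraries (log2 fold change -2.13, SE 0.079, adjusted p = 1.1e-24). Zbtb16, a zinc finger gene induced by dexamethasone, fell from 1.50 ± 0.362 to 0.285 ± 0.105 CPM, Klf15 fell from 12.6 ± 0.841 to 6.37 ± 1.94 CPM, Lcn2, an iron-trapping lipocalin, fell from 387 ± 4.18 to 228 ± 15.2 CPM, and Hsd11b1, the enzyme that makes active glucocorticoid, fell from 93.4 ± 3.32 to 58.9 ± 0.753 CPM. The list did not move as a whole. The standard targets Fkbp5 and Sgk1 had log2 fold changes of 0.21 and 0.20, Tsc22d3 of 0.06 and Per1 of -0.15, and the receptor gene Nr3c1 of -0.16, none of them called. Dexamethasone was in the medium of both groups.

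Several enzymes that detoxify aldehydes and oxidants fell as well. Of 50 genes of the NRF2 and oxidant defence list, 1 rose (none without Thrombin replicate 3) and 9 fell, with a median of -0.13. Besides the metallothioneins, Aldh3a1 fell from 50.2 ± 3.51 to 15.8 ± 1.78 CPM (log2 fold change -1.67, SE 0.089, adjusted p = 1.8e-19), Akr1c14 from 18.6 ± 0.743 to 2.78 ± 0.208 CPM, Mgst1 from 20.5 ± 2.99 to 7.69 ± 1.36 CPM and Ephx1 from 31.7 to 15.6 CPM. Reads of the Akr1c family may be split between near-identical copies. The standard NRF2 targets Nqo1, Gclc and Txnrd1 had log2 fold changes of -0.24, -0.20 and 0.23 and were not called. Of 18 retinoid genes, 1 rose and 4 fell, including Aldh1a2, which makes retinoic acid (from 3.14 to 0.854 CPM), and the retinoid-induced Tgm2, transglutaminase 2 (from 82.3 ± 3.14 to 33.3 ± 2.25 CPM).

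The lipid genes that fell included genes of uptake and of export. Of 41 genes of fatty acids and lipid storage, 2 rose, or 1 without Control replicate 1 or Thrombin replicate 3, and 6 fell. Lpl, lipoprotein lipase, fell from 207 ± 5.67 to 99.6 ± 3.03 CPM (log2 fold change -1.06, SE 0.043, adjusted p = 1.9e-23), Apoe fell from 83.7 ± 0.460 to 39.6 ± 1.46 CPM, and the adipocyte regulator Pparg fell from 1.22 ± 0.386 to 0.331 ± 0.193 CPM, a low level. Abca1, which exports cholesterol, fell from 124 ± 1.53 to 40.2 ± 1.69 CPM (log2 fold change -1.62, SE 0.051, adjusted p = 2.4e-27). The fat cell markers Adipoq and Plin1 were close to 0 in every library. Sterol genes gave few calls, since 2 of 34 sterol genes fell, Abca1 among them, and none rose.

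In the glycolysis list the clearest rise was in the mRNA of a lactate exporter gene. Of 34 genes 3 rose and 1 fell, or none without Control replicate 2 or Thrombin replicate 2, and 16 were higher and 3 lower by the adjusted p-value alone. Slc16a3, the lactate exporter MCT4, read 46.0, 47.2 and 47.6 CPM in the control libraries and 104, 93.0 and 99.3 CPM in the thrombin libraries (log2 fold change 1.07, SE 0.054, adjusted p = 3.6e-20). Pkm, Eno1 and Ldha, which act at the lower end of glycolysis, had log2 fold changes of 0.41, 0.40 and 0.30. In the hypoxia list, 3 of 22 rose (1 without Control replicate 2) and 1 fell (2 without Control replicate 1 or Thrombin replicate 3). Bhlhe40 rose from 55.2 ± 3.13 to 90.0 ± 3.35 CPM, and its relative Bhlhe41 rose from 4.43 ± 0.225 to 10.5 ± 0.841 CPM in the circadian list, where 2 of 19 rose and none fell. Adm, the vasodilator adrenomedullin, fell from 348 ± 9.68 to 185 ± 7.39 CPM (log2 fold change -0.91, SE 0.038, adjusted p = 7.7e-23). Of 47 genes of amino acid supply, 4 rose (1 without Thrombin replicate 2, and 2 without Control replicate 2 or Thrombin replicate 3) and 1 fell, with a median of 0.14, and 23 were higher by the adjusted p-value alone. The arginine importer gene Slc7a1 rose from 29.4 ± 3.39 to 47.6 ± 3.67 CPM, and the fall was in Stc2, from 88.5 ± 2.1 to 46.1 ± 3.43 CPM.

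Genes of cell division shifted by small, even amounts. None of 61 replication genes and none of 69 mitosis genes was called. By the adjusted p-value alone, however, 33 replication genes were higher and 1 was lower, and 23 mitosis genes were higher and 1 was lower. The background by that rule was 14.1% higher and 14.6% lower. The medians were 0.20 and 0.11. Dut, which keeps uracil out of DNA, went from 46.2 ± 1.2 to 65.7 ± 2.58 CPM (log2 fold change 0.51, SE 0.059, adjusted p = 2.4e-09), Cdt1, which licenses origins, from 30.8 ± 1.45 to 40.9 ± 2.62 CPM, and the helicase subunit gene Mcm5 from 125 ± 3.57 to 154 ± 2.49 CPM. Mki67, the proliferation marker, had a log2 fold change of 0.22. Of 24 cyclins and kinase inhibitors only Cdkn1c was called. In the p53 and apoptosis list 3 of 35 fell (5 without Control replicate 2 and 1 without Thrombin replicate 3) and none rose, and Cdkn1a, the standard p53 target, had a log2 fold change of -0.13.

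The replication list was also looked at from its promoters. E2F, the factor family that opens S phase, binds sites such as TTTCCCGC and TTTGGCGC. On either strand, 1 of these forms stood in 18 of 47 matched promoters of the list (38.3%) and in 3.05% of all 9213. Of the 25 matched members that were higher by the adjusted p-value alone, 9 held a match. Mcm5 is printed from 250 bases before the start, Mcm6 from 150 to 51 bases before it, and Dtl, which controls the destruction of Cdt1, from 100 bases before it, with the matches in capitals. Mcm6 and Dtl had log2 fold changes of 0.23 and 0.40.
Mcm5, chr19:13488563-13488812, forward strand: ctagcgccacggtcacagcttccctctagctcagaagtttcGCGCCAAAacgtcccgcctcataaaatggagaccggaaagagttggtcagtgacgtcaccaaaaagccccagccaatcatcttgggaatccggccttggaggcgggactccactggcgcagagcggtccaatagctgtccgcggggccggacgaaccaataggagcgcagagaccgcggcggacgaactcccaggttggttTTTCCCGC
Mcm6, chr13:42404403-42404502, reverse strand: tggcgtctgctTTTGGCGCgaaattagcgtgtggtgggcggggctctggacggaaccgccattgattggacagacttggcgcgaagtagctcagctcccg
Dtl, chr13:105685922-105686021, reverse strand: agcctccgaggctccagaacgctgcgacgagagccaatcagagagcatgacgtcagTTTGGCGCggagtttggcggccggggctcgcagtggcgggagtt

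Housekeeping machinery was close to level. No member was called among 75 cytosolic and 71 mitochondrial ribosomal protein genes, 59 genes of ribosome biogenesis, 72 of oxidative phosphorylation, 46 of the tricarboxylic acid cycle and fatty acid oxidation, or 47 of folding in the endoplasmic reticulum. Their medians ran from -0.020 to 0.081. The exceptions were 1 cytosolic ribosomal protein gene higher without Control replicate 3 and 1 gene of the tricarboxylic acid cycle list lower without Control replicate 1. By the adjusted p-value alone, 15 endoplasmic reticulum genes were higher and none lower, led by Ern1, the stress sensor IRE1 (0.42), and the chaperone gene Hspa5 (0.36). Heat shock and proteasome genes had 1 rise and 1 fall among 56, the fall being the immunoproteasome gene Psmb9. The rise was lost without Control replicate 1, Control replicate 3 or Thrombin replicate 1, and the fall without Thrombin replicate 1 (log2 fold change -0.53). Lysosomal genes leaned down. Only Ctsh, a cathepsin, fell among 56 (from 219 ± 2.35 to 145 ± 7.25 CPM), and not without Thrombin replicate 2 (log2 fold change -0.56), but 27 were lower and 4 higher by the adjusted p-value alone, with a median of -0.095.

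**Figure D5:**
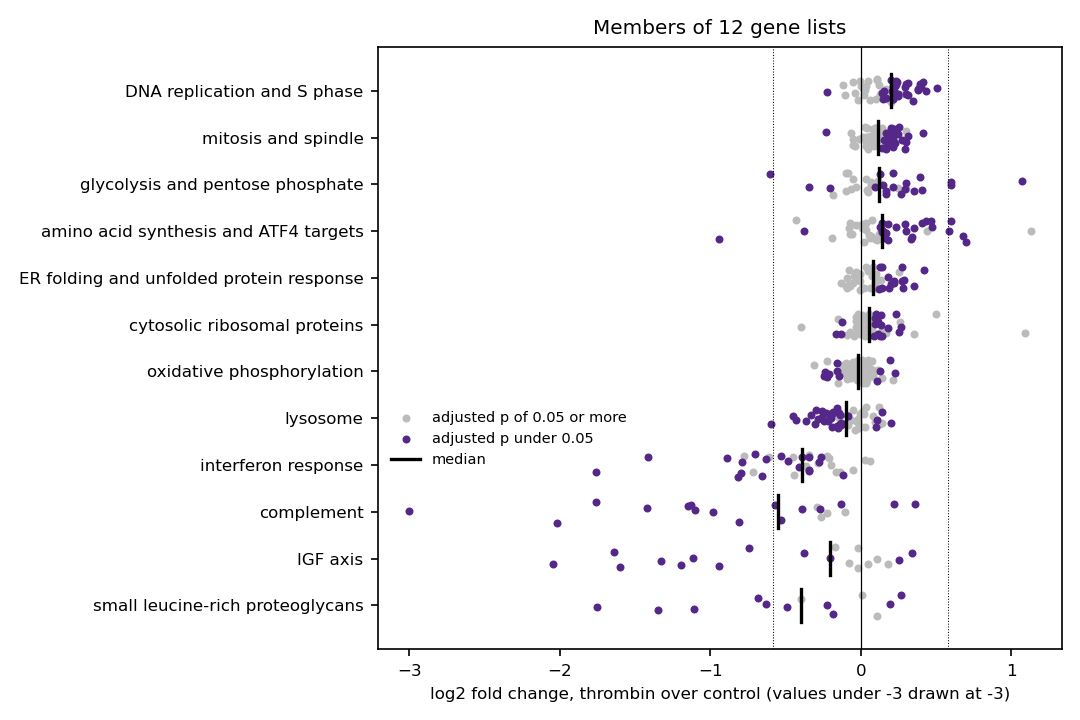
Log2 fold change of every tested member of 12 gene lists (points, purple where the adjusted p-value is under 0.05 and grey otherwise), with the median of each list as a black bar and the fold threshold as dotted lines. Replication and mitosis genes form narrow clouds just right of 0, lysosomal genes just left of it, and complement, interferon and IGF genes spread to the left beyond the threshold.

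Lineage genes did not move as blocks. Of 29 osteoblast and osteocyte genes, 4 rose and 7 fell, often from low levels. Enpp1, which makes the mineralisation inhibitor pyrophosphate, rose from 18.4 ± 0.185 to 38.6 ± 2.64 CPM (log2 fold change 1.07, SE 0.080, adjusted p = 1.3e-14), the vitamin D receptor gene Vdr rose from 3.83 ± 0.989 to 6.93 ± 0.542 CPM and the homeobox gene Msx2 rose from 58.3 ± 3.71 to 96.1 ± 2.88 CPM. Besides Fgf23 and Omd, the homeobox gene Dlx3 fell from 1.15 ± 0.207 to 0.366 ± 0.0798 CPM. Of 23 cartilage and tendon genes, 5 rose and 7 fell. The transcription factor genes Scx and Sox9 rose, Scx of tendon from 4.81 ± 0.701 to 12.8 ± 1.33 CPM (log2 fold change 1.42, SE 0.14, adjusted p = 2.0e-11) and Sox9 of cartilage from 7.68 ± 0.349 to 14.3 ± 0.368 CPM, and structural genes went both ways. Cilp, Col2a1 and the tendon gene Tnmd (from 46.2 ± 1.38 to 24.8 ± 2.63 CPM) fell, whereas Matn3, a cartilage matrilin, rose from 0.988 ± 0.162 to 2.36 ± 0.578 CPM and the aggrecan gene Acan rose from 0.590 ± 0.221 to 1.43 ± 0.412 CPM, both from low levels. Acan lost its call without Control replicate 1 (1.04) or Thrombin replicate 2 (1.08). Of 40 craniofacial factor genes, 3 rose and 6 fell, with Osr1 down from 41.0 ± 1.45 to 21.3 ± 1.90 CPM, Lhx8 down from 23.4 ± 1.87 to 12.2 ± 2.21 CPM and its relative Lhx6 up from 3.49 ± 0.589 to 7.37 ± 0.931 CPM. No Hox gene of 10 was called. Muscle and cilium genes gave 1 rise and 2 falls of 13, and 1 rise and 3 falls of 61, respectively. In the cilium list the rise was lost when any replicate but Thrombin replicate 3 was left out, and the falls were lost without Control replicate 2, with 1 left without Thrombin replicate 3.

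Across all matched promoters, a few motifs stood at different shares in called genes and in the background. The AP-1 site TGANTCA stood in 24 of 220 promoters of genes called higher (10.9%), in 36 of 468 of genes called lower (7.69%) and in 4.79% of all. The TATA box TATAAA stood in 10.5%, 11.3% and 6.27%. The Ets site CCGGAAGT, common in the promoters of housekeeping genes, stood in 0.455%, 0.641% and 8.40%. The cAMP response element TGACGTCA was in 5.45% of promoters of genes called higher and 0.214% of those called lower, beside 3.30% of all. The median GC content of these promoters was 63.3%, 58.8% and 61.3%. The interferon-stimulated response element stood in 0.909% of promoters of genes called higher, 7.05% of those called lower and 2.82% of all. For the TEAD site the shares were 11.8%, 16.2% and 11%. These shares carry no test, and the motifs given were picked from those searched. The AP-1 site is shown in Lrrc15 and Plaur, genes that rose, from 100 bases before the start. It also stands, not in capitals, in the promoters printed above for Gbp2 and Mt2A, genes that fell.
Lrrc15, chr11:83974608-83974707, forward strand: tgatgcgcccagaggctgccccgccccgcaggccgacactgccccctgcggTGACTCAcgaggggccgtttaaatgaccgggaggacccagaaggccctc
Plaur, chr1:89181263-89181362, forward strand: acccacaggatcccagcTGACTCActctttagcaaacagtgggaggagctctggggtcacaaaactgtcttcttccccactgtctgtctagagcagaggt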

How the data were processed

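Poly(A) RNA of rat osteoblasts was sequenced. The authors deposited raw read counts and FPKM values (fragments scaled by gene length and depth) per gene for 9 libraries. The paper names fastp, HISAT2 and featureCounts on an earlier rat build, whereas the submitters' processing notes list HISAT2, HTSeq 0.13.5 and mRatBN7.2, so the counter and build are given differently. Strand was not given in the sources used here, and reads of overlapping or antisense genes cannot be told apart. No column of the table went unmapped to a sample.

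Groups were taken from the labels, 3 libraries each. Nothing further describes how the samples were kept separate, so p-values measure the spread between these samples. Counts were filtered with filterByExpr (minimum count 10), scaled by TMM and fitted with edgeR 4.0.16 (R 4.3.3) by quasi-likelihood, with the 9 libraries in 1 fit and thrombin contrasted with control. P-values were adjusted by Benjamini-Hochberg over 13256 genes. SEs were derived from the F statistic. CPM values were computed after TMM scaling, and errors are SD, n = 3. On simulated counts with 200 changed genes, the fit was tested and recovered them. The changed genes were drawn only from those with a mean above 50 counts and were given changes larger than the fold threshold. Calls of low genes and calls near the threshold were therefore not covered. Alternatives used limma 3.58.1, DESeq2 1.42.0 and log2(FPKM + 1).

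The genes and lists were chosen with earlier results of these data known. The genes named were the 15 largest rises and 15 largest falls among called genes with a symbol, at least 5 CPM and no overlap between groups, the 10 largest gains and 10 largest losses in CPM, up to 5 rises and 5 falls per list, the first gene of each list, markers, and genes of at most 3 counts in a group. Genes that the paper names, apart from osteoblast markers, were counted but not described, and some genes that the rule chose are not reported here. Promoters came from RefSeq (GRCr8), matched by symbol. Replicate numbers were checked for pairing through the correlation of same-numbered deviations from the group means (0.022, -0.00045 and -0.0040). These gave no sign of pairing, but such a check cannot show that the samples were unpaired. Groups of 3 were too small for an outlier rule.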

Additional observations from a re-analysis of the deposited data

How the results depend on the processing

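No call of a named gene changed direction under any alternative run. Beside 347 genes called higher and 721 lower, no fold threshold gave 1867 and 1941, a log2 fold change above 1 gave 133 and 372, edgeR's test against a fold threshold (glmTreat) gave 147 and 313, log2(FPKM + 1) with limma gave 192 and 351, and a mean of at least 50 counts gave 256 and 480. The stricter fold rules and the filter call fewer genes by construction; for FPKM the cause was not tested. The counts stayed within 1.5 times with other size factors, no filter, DESeq2, limma voom, log2(FPKM + 0.1) and only the 6 libraries. Leaving out 1 library gave 325 to 357 higher and 664 to 712 lower. Among genes followed singly, 14 to 30 lost their call when 1 library was left out, 16 with DESeq2's test and 109 with log2(FPKM + 1), a scale on which the change of low genes is understated.

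With the replicate number as a block, 343 genes were called higher and 724 lower. The numbers gave no sign of pairing, which does not show that the samples were unpaired, and the block is given only as an alternative. Depth limits low genes most, such as those under 1 CPM.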
